A study of Rattus norvegicus with 9 samples.

Results

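Gene expression in the kidneys of 5 control rats was described by the level, rank and between-animal spread of each transcript measured on an oligonucleotide array. The members were the 5 arrays labelled Control out of 9 arrays in a series on gene expression in hypotension, the other 4 being labelled Case. Each array held total RNA from the kidney of 1 numbered rat (Rattus norvegicus), and the control animals were 4, 9, 10, 11 and 12. The labels gave no strain, sex, age, treatment, time of day or part of the kidney for any of the animals, so the control kidneys are known only by that label. No comparison with the Case arrays was made, and nothing below is a test between groups. Nothing in the labels says whether the control animals were handled alike.

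The kidney filters plasma in the glomerulus and then reshapes the filtrate along the nephron. The proximal tubule, which makes up most of the renal cortex, reabsorbs the bulk of filtered salt, glucose, phosphate and amino acids, takes up filtered protein by endocytosis and secretes organic ions. The thick ascending limb and the distal convoluted tubule reabsorb salt without water, and the collecting duct sets the final content of water, salt and acid under vasopressin and aldosterone. Proximal cells live mainly on oxidative metabolism, and they also make glucose and ammonia.

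The deposited value of a probe set, the group of short probes that reports 1 transcript, was a linear intensity in scaled units, called its signal here. Of the 15923 probe sets, 57 manufacturer's controls were left out and 15866 were described. The median signal of an array was 49.1 to 55.6. A signal of 272 marked the 90th percentile of the mean over the animals, and 1515 the 99th. The brightest 1% of probe sets, 159 in number, carried 18.6% of the summed signal, and the brightest 10% carried 56.3%. A rank is the percentile of a probe set's signal among all described probe sets on its array, averaged over the 5 arrays. Each gene is represented by its brightest probe set that was annotated to that gene alone, which gave 10411 genes, of which 1213 (11.7%) ranked above the 90th percentile. Probes differ in how well they bind, so the order of signals of different genes is not the order of their RNA amounts. For 1868 genes with several probe sets, the brightest and the dimmest differed by a median of 22.5 percentile points. In these whole-tissue samples, fewer cells of a type and less RNA per cell cannot be told apart.

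Spread was taken on log2(signal + 5.17), where the added value was 10% of the median signal, over probe sets whose mean lay above the 40th percentile, a signal of about 34.7. This left 9519 probe sets, called kept below, and 7119 kept genes. The SD over the 5 animals had a median of 0.23 log2 units, with quartiles of 0.16 and 0.32. It was 0.28 in the dimmest 25% of kept probe sets and 0.19 in the brightest. A range between the highest and the lowest animal of at least 1 log2 unit, called wide below, was found for 1148 kept probe sets (12.1%), and for 767 kept genes (10.8%). The spread joins differences between animals, between dissections and between arrays, with 1 array per animal. Values after ± are SDs over the 5 animals (n = 5), and signals in a row are given for animals 4, 9, 10, 11 and 12 in that order.

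The arrays correlated with each other at r = 0.94 to 0.97 across the described probe sets, with the lowest value for animals 4 and 11 and the highest for animals 9 and 11. Genes are not independent replicates, so these coefficients are descriptions. From the clock times in the experiment files, 3 runs of the fluidics station, the instrument that washes and stains the arrays, were inferred. The dates given with these times were not used. Animal 4 was in 1 run, animals 9, 10 and 11 in another, and animal 12 in the remaining run. For animals 4 and 12, run and animal cannot be told apart. The ratio of the 3′ to the 5′ control probe set of beta-actin, a measure of RNA integrity and labelling, was 1.65 in animal 4, 2 in animal 9, 1.12 in animal 10, 1.73 in animal 11 and 1.94 in animal 12. The same ratio for Gapdh was 1.56 in animal 4, 1.63 in animal 9, 1.75 in animal 10, 1.57 in animal 11 and 1.79 in animal 12. Animal 4 was the highest or the lowest animal for 771 of the 1148 wide probe sets (67.2%). Over all kept probe sets, wide or not, it was highest for 30.1% and lowest for 23.7%. Over the other 4 animals alone, 561 of the same kept probe sets were wide (5.89%). Ranges without animal 4 are therefore given for the named kept genes that were wide only with it. Of 38 named genes with a further kept probe set, 23 had a larger SD there than at the brightest one, so a small SD can belong to 1 probe set alone.

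The brightest signals came from a small set of proximal, mitochondrial and antioxidant genes. Gpx3, which encodes the plasma glutathione peroxidase that proximal tubules secrete, had the highest mean signal of any represented gene. Its signals were 9783, 6575, 9061, 5853 and 9578, a mean of 8170.1 ± 1823, with no animal far from the others. Kap, a kidney androgen-regulated protein known from mouse proximal tubules, followed with 6481 ± 1046. The mitochondrially encoded cytochrome oxidase subunits COX2 and COX1 had 6365 ± 1275 and 6242 ± 983. Slc3a1, the heavy subunit of the brush border transporter for cystine and dibasic amino acids, had 4791, 5315, 6097, 5115 and 6109.8. Its highest animal was 1.28-fold above its lowest on the log2(signal + pseudocount) scale, on which all folds here are taken. Further down the 30 brightest genes stood the thick limb glycoprotein Umod, the trefoil peptide Tff3, the peroxisomal hydroxyacid oxidase Hao2, the sodium pump beta subunit Atp1b1, the inositol oxygenase Miox and the phosphate transporter Slc34a1. Among these 30 genes the SD was smallest for the membrane protein Itm2b (0.07 log2 units, 3051 ± 153) and largest for Slc34a1 (0.35).

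**Figure D1:**
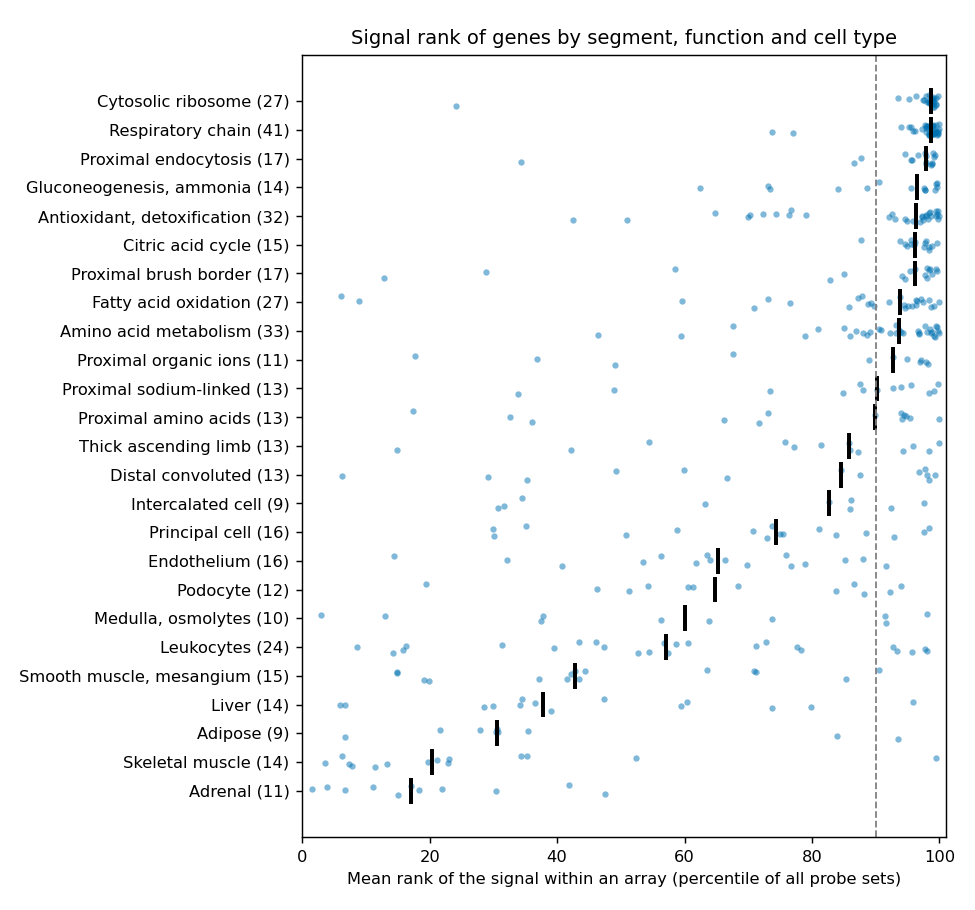
Mean rank of the signal within an array, as a percentile of all probe sets, for the genes of 25 lists. Each point is 1 gene, black bars are list medians, numbers in brackets are genes measured, and the dashed line marks the 90th percentile. Ribosomal and respiratory chain genes lie furthest right with medians of 98.7 and 98.7, and adrenal genes furthest left with 17.1.

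Genes of the glomerulus and the vessels ranked in the middle of the arrays. The median rank was 64.8 for 12 podocyte genes, 65.2 for 16 endothelial genes and 42.8 for 15 genes of smooth muscle and mesangium, against 57.5 for all represented genes. Among podocyte genes, Nphs1, which encodes nephrin of the slit diaphragm, had signals of 60.1, 58.3, 30.2, 59.3 and 71.3. Animal 10 lay below the other 4 animals, and it was the lowest animal, as was animal 11, for 4 of the 11 kept podocyte genes, where animals 10 and 11 were lowest for 19.2% and 22.4% of all kept genes. The transcription factor Wt1 had 46.4 ± 14.6, the surface sialomucin Podxl 218 ± 29.8 and the actin-associated synaptopodin gene Synpo 242 ± 35.3. Vegfa, the endothelial growth factor that podocytes and tubules make, had 341 ± 25.1 and an SD of 0.10. Of its receptors, Kdr had 199.5 ± 28.2 and Flt1 37.2 ± 9.43. Emcn, a sialomucin of capillary endothelium, had 318 ± 20.3 with an SD of 0.09. None of the 14 kept endothelial genes was wide, where 10.8% of all kept genes were. The endothelial nitric oxide synthase gene Nos3 did not pass the filter, with 8.18 ± 3.21. Among the genes of contractile cells, Mylk, the myosin light chain kinase, had 290.1 ± 34.9, Acta2, the smooth muscle actin, 107 ± 14.8 and Pdgfrb, the receptor of pericytes and mesangial cells, 41 ± 4.80. Pdgfra, the receptor of interstitial fibroblasts, had 117, 249, 251, 238 and 237. Animal 4 alone lay apart, and without it the range shrank to 0.08 log2 units, against 1.06 with it.

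The 5 proximal tubule lists were bright together. Of 71 genes measured, 45 ranked above the 90th percentile, and 62 were kept. Sodium-linked transport of the apical membrane was led by Slc34a1, the phosphate cotransporter, with signals of 4495, 2598, 3858, 2731 and 3947. Animal 4 was highest and animals 9 and 11 lowest, and the gene's other probe set had its highest and lowest values in animals 4 and 9 too, at 2183 and 932. The early proximal glucose cotransporter Slc5a2 had the largest SD of the kept proximal genes after Slco1a6, with 692, 158, 331, 218 and 454. The animals were spread out without a gap, from animal 9 at the low end to animal 4 at the high end. The fold between them was 4.27, and the range was 2.09 log2 units with animal 4 and 1.49 without it. Its late proximal counterpart Slc5a1 did not pass the filter and had its lowest signal, 6.50, in animal 4, against 28.1 to 48.6 in the other 4 animals. The water channel Aqp1 had 1748 ± 343, the dicarboxylate transporter Slc13a3 1159 ± 305 and the sodium-hydrogen exchanger Slc9a3 195 ± 15.6. Slc9a3 had an SD of 0.11, the smallest of the sodium-linked list. The basolateral bicarbonate cotransporter Slc4a4 had 433 ± 96.3, and the glucose transporter Slc2a2 117 ± 14.6. The sulfate transporter Slc13a1 had 328, 169.6, 177, 225 and 343, with animals 4 and 12 above the other 3. Across the sodium-linked list, animal 9 was lowest for 6 of 12 kept genes and animal 4 highest for 6. Over all kept genes animal 9 was lowest for 18.8% and animal 4 highest for 29.9%.

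The brush border, the microvillar membrane of proximal cells, carries peptidases that finish the digestion of filtered peptides. Of 17 measured genes, 12 ranked above the 90th percentile. The aminopeptidase Anpep had 2212 ± 343, the gamma-glutamyltransferase Ggt1 2537 ± 338, the dipeptidyl peptidase Dpp4 1153 ± 159.8 and the meprin subunit Mep1a 1401 ± 239. These 4 had SDs of 0.18 to 0.24. The scaffold Nherf1 had 977 ± 49.6 and the membrane linker Ezr 916 ± 54.3, with SDs of 0.07 and 0.08. A dimmer probe set of Nherf1 had an SD of 0.46. Mme, which encodes neprilysin, was wide, with 256, 946, 556, 955 and 566. Animal 4 was lowest, animals 9 and 11 were highest and nearly equal, and animals 10 and 12 lay between them. Mep1b, the other meprin subunit, had the same order of animals, with 284, 629, 463, 665 and 468. Without animal 4 neither was wide, at 0.77 and 0.52 log2 units. The probe set of Ace, the angiotensin-converting enzyme, did not pass the filter, with 22.8 ± 11.

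Amino acid and peptide transporters ranked at a median of 89.9. The cystine transporter's light subunit Slc7a9 had 459 ± 64.9, the glutamate transporter Slc1a1 425 ± 37.5 and the peptide transporter Slc15a2 296 ± 84.5. The neutral amino acid transporter Slc6a18 had 541 ± 129. Slc7a7, the basolateral exporter of dibasic amino acids, had 796, 375, 427, 367 and 592, highest in animal 4 and next in animal 12, and its range was 1.10 log2 units with animal 4 and 0.68 without it. Its heavy-subunit partner Slc3a2 had 499.9, 295, 600.4, 370.2 and 499.6, highest in animal 10. The glutamine transporter Slc38a3 had 58.1, 174, 153, 137 and 115, with animal 4 below the others, and its range was 1.50 log2 units with animal 4 and 0.58 without it. Slc7a12, a related transporter outside the list that was among the 25 genes with the largest excess spread, had 505, 1814, 2037, 1805 and 1077. Animal 4 was lowest there too, animal 12 next, and the remaining 3 animals lay together. Without animal 4 its range was 0.92 log2 units, and it was wide only with that animal.

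Organic ion transport, by which proximal cells clear drugs and metabolites, had the largest median SD of the proximal lists, 0.37 log2 units, against 0.23 for all kept genes. Slco1a6, an organic anion transporting polypeptide, had signals of 157, 919, 598, 773 and 322. Animals 4 and 12 lay below the other 3, and the range was 2.51 log2 units with animal 4 and 1.50 without it. The basolateral anion exchanger Slc22a8 ran the other way in these 2 animals, with 1301, 504, 802, 512 and 1061. Slc22a6, the other main basolateral anion exchanger, had 1195, 954, 694, 806 and 1265, and animals 4 and 12 were its highest. The cation transporter Slc22a2 had 693, 1170.4, 1459, 1301 and 841, and animals 4 and 12 were its lowest, with a range of 1.07 log2 units, or 0.79 without animal 4. For all 4 of these genes the values of animals 4 and 12 did not overlap those of animals 9, 10 and 11. The same was true of Slc22a5, Slco1a1, Abcc2 and Abcb1a, which are described next. This split was noticed after the values were seen, and its share over all kept genes was not counted. The rest of the 11 measured genes of the list are not described, so the split cannot be read as a trait of this list. Animals 9, 10 and 11 shared a fluidics run, while animals 4 and 12 were in separate runs, each as the only control array. For animals 4 and 12, run and animal cannot be told apart here. The carnitine transporter Slc22a5 had 495 ± 105 and Slco1a1, another polypeptide of this family, 763 ± 171. The efflux pumps were dimmer, with 50.5 ± 9.95 for Abcc2 and 10.9 ± 4.20 for Abcb1a, which did not pass the filter.

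Endocytosis and lysosomal handling of filtered protein had the highest median rank of the segment lists, 97.8. Of 17 genes 14 ranked above the 90th percentile. None of the 16 kept genes of the list was wide, where 10.8% of all kept genes were. The scavenger receptor gene Lrp2, which encodes megalin, had 1184, 1609.9, 1278, 1608 and 1456. Its partner cubilin, Cubn, had 541 ± 66.4, and Amn, which anchors cubilin, 544 ± 44.2. The adaptor Dab2 had 1309 ± 220.3, the cathepsins Ctsl, Ctsh and Ctsb had 1878 ± 282, 1785 ± 382 and 1637 ± 367, and the legumain gene Lgmn 949.5 ± 123. The chloride transporter Clcn5 of endosomes did not pass the filter, with 28.7 ± 6.63.

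**Figure D2:**
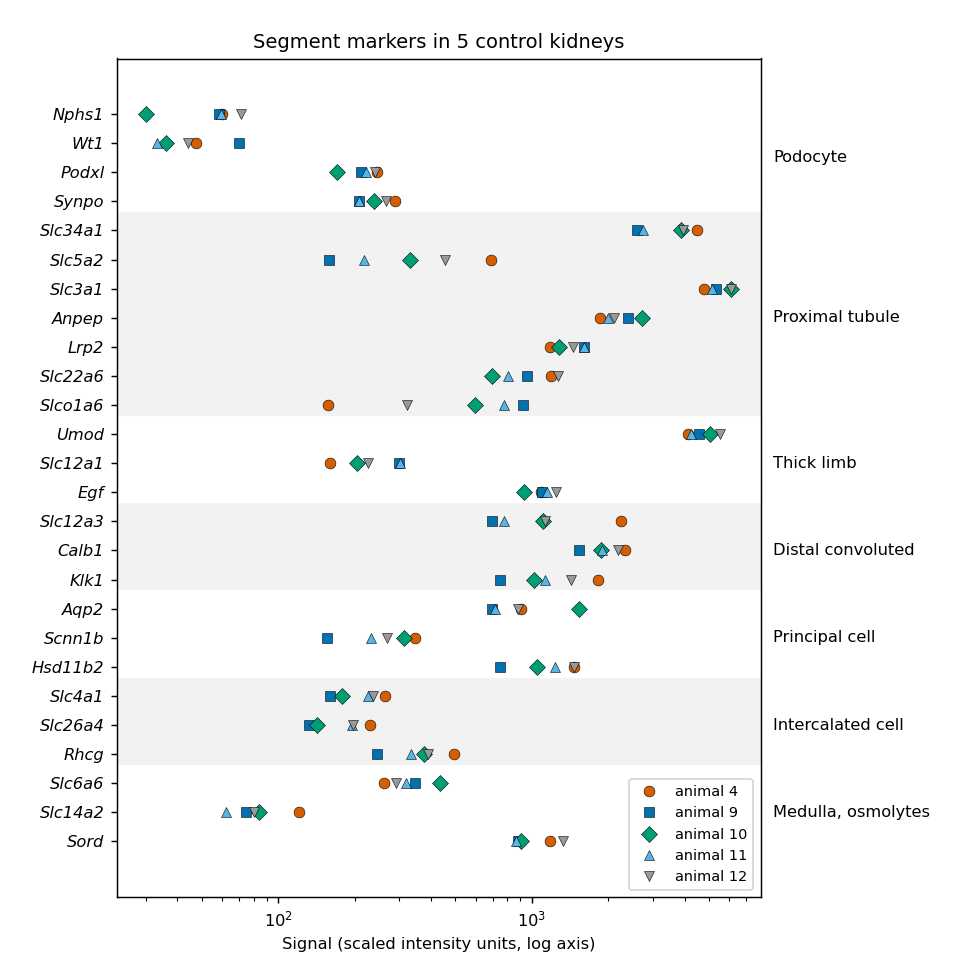
Signal (scaled intensity units, log axis) of 26 segment marker genes, grouped by segment, in each of the 5 control animals. Each point is 1 array. Umod and Slc3a1 show close points for all animals, while Slc5a2 and Slco1a6 spread over 4.27-fold and 5.69-fold with animal 4 at opposite ends, highest for Slc5a2 and lowest for Slco1a6.

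In the thick ascending limb, Umod, which encodes uromodulin, the most abundant protein of normal urine, had signals of 4131, 4539, 5057, 4228 and 5512. The animals lay close together, with an SD of 0.18. Egf, the epidermal growth factor precursor made in the thick limb and distal tubule, had 1099.8 ± 112 and an SD of 0.15. The salt cotransporter Slc12a1, the target of loop diuretics, had 161, 299, 204, 302 and 225, lowest in animal 4. The potassium channel Kcnj1 had 214 ± 52.3, the calcium-sensing receptor Casr 208 ± 28.8 and the tight junction genes Cldn10 and Cldn19 597 ± 138 and 141 ± 39.4. Cldn16, the paracellular magnesium pathway, had 65.8, 77.1, 29.1, 76.2 and 69.4, and animal 10 alone stood below the others. It was the only wide gene of the 12 kept, where 10.8% of all kept genes were wide.

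In the distal convoluted tubule and connecting tubule, 5 of 13 genes ranked above the 90th percentile. Slc12a3, the thiazide-sensitive salt cotransporter, had signals of 2245, 695, 1102, 779 and 1126. Animal 4 lay far above the other 4, whose own range of 0.69 log2 units was not wide. Klk1, tissue kallikrein of the connecting tubule, had 1829, 751, 1018, 1131 and 1429, again highest in animal 4 and lowest in animal 9. The calcium buffer Calb1 had 2335, 1534, 1882, 1889.6 and 2187, in the same order at both ends. Nedd4l, the ubiquitin ligase that removes sodium channels from the membrane, was lowest in animal 4, with 43.2, 114, 61.7, 96.6 and 73.9. All 3 wide genes of the list, Slc12a3, Klk1 and Nedd4l, were within 1 log2 unit over the other 4 animals, Klk1 with 0.92 and Nedd4l with 0.83 log2 units. The kinase gene Wnk1 had 948 ± 198, the potassium channel Kcnj16 694 ± 79.1 and the calcium pump Atp2b1 192 ± 6.94, with an SD of only 0.05. The probe sets of Pvalb and S100g, which mark parts of these segments, did not pass the filter, with 3.08 ± 1.82 and 29.6 ± 3.95.

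Principal cell genes of the collecting duct were led by Hsd11b2, which protects the mineralocorticoid receptor from glucocorticoids, with 1462, 749, 1047, 1234 and 1464, and by the vasopressin-regulated water channel Aqp2, with 910.2, 699, 1539, 716 and 881. Aqp2 was highest in animal 10, and the other 4 animals lay together. The sodium channel subunits had 189.7 ± 43.2 for Scnn1a, 346, 155, 314, 231 and 269 for Scnn1b in the 5 animals and 165 ± 35.7 for Scnn1g. Scnn1b was highest in animal 4 and lowest in animal 9, with a range of 1.13 log2 units, and just under 1 log2 unit without animal 4. Animal 9 was the lowest animal for 9 of the 13 kept principal cell genes, where it was lowest for 18.8% of all kept genes. The vasopressin receptor Avpr2 had 125 ± 15.8, the mineralocorticoid receptor Nr3c2 116 ± 17.8 and the basolateral water channel Aqp3 130.3 ± 29.8. Among intercalated cell genes, the cytosolic carbonic anhydrase Car2 had 833 ± 95. The chloride-bicarbonate exchanger Slc4a1 of acid-secreting cells had 264, 160.1, 178, 226 and 236, the exchanger Slc26a4 of base-secreting cells 179.7 ± 41.2, and the ammonia channel Rhcg 494, 244, 377, 333 and 389.7. Slc4a1 and Rhcg were each highest in animal 4 and lowest in animal 9, and without animal 4 the range of Rhcg was 0.66 log2 units, so that it was wide only with that animal. The list holds few genes, 9 measured and 6 kept.

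Genes of the inner medulla and of osmolyte handling had a median rank of 60.1 but were spread widely, from 2.90 to 98.1. Of 10 genes measured, 3 ranked above the 90th percentile and 4 did not pass the filter. The genes named next are kept ones. The sorbitol dehydrogenase Sord had 1033 ± 209.8, the taurine transporter Slc6a6 330.0 ± 65.7 and the tonicity-response factor Nfat5 330.1 ± 72.6. The aldose reductase Akr1b1, which makes sorbitol, had 119 ± 12.9, and the urea transporter Slc14a2 84.5 ± 22. The labels do not say which part of each kidney was taken. Marker genes of the urothelium that lines the pelvis were dim, with a median rank of 34.4 over 6 genes. Along the whole nephron the sodium pump drives transport. The 10 measured genes of its list had a median rank of 64.4. Of them, 3 ranked above the 90th percentile and 3 did not pass the filter. Among the brightest, the beta subunit Atp1b1 had 4553, 3818, 4464, 3173 and 4839, and the regulatory subunit Fxyd2 2489 ± 288.

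Genes of fuel metabolism were bright. Over 5 metabolic lists, 97 of 128 measured genes ranked above the 90th percentile, and 9 of 126 kept genes were wide (7.14%), against 10.8% of all kept genes. Without animal 4, 2 were wide. The median SD of these genes was 0.19 log2 units, as it was in the brightest 25% of all kept probe sets (0.19). Of 41 respiratory chain and ATP synthase genes, 39 ranked above the 90th percentile, and their median SD was 0.16 log2 units. The ATP synthase subunit Atp5f1b had 5222, 4511, 5287, 3861 and 5277, and the cytochrome oxidase subunit Cox8a 3710.1 ± 487. Atp5pd had 1183 ± 38, with an SD of 0.05. Cox5a was the exception, with 159, 113, 157, 86.7 and 195 and a range of 1.12, lowest in animal 11. All 15 citric acid cycle genes were kept and none was wide, with a median SD of 0.16. The malate dehydrogenase Mdh1 had 2325 ± 271 and the isocitrate dehydrogenase Idh2 1355 ± 87.5. Cytosolic ribosomal protein genes had a median rank of 98.7 and the smallest median SD of the lists with at least 5 kept genes, 0.15. Rpl30 alone did not pass the filter, at 17.2 ± 7.78.

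Gluconeogenesis and ammonia formation, which the proximal tubule shares in part with the liver, had a median rank of 96.6. The gatekeeper Pck1 had 2352, 1698, 3025, 1222 and 2154, highest in animal 10 and lowest in animal 11. Fbp1, the fructose bisphosphatase, had 2141 ± 312 and was steadier, with an SD of 0.22 against 0.49 for Pck1. Glud1, the glutamate dehydrogenase, had 642, 1296, 922, 1024 and 742, lowest in animal 4, and a range of 1.01 log2 units, or 0.80 without that animal. Glul, the glutamine synthetase, had 2374 ± 408. Beta-oxidation genes had a median SD of 0.19, with Acadm, the medium-chain dehydrogenase, at 1665 ± 192, and Hadh and Hsd17b4 at SDs of 0.08 and 0.07. Eci2, an enoyl isomerase, was the only wide one of 25 kept, where 10.8% of all kept genes were wide. It had 164, 408, 264, 365 and 304, lowest in animal 4, without which its range was 0.62 log2 units. The peroxisome proliferator receptor Ppara and the liver-type fatty acid binding protein Fabp1 were near the bottom of the arrays, at 4.08 ± 1.05 and 3.06 ± 2.05.

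Amino acid metabolism held both very bright and variable genes. Miox, the kidney's inositol-degrading oxygenase, had 4485, 3640.2, 3962, 3709 and 4823. The aminoacylase Acy1 had 2916 ± 375, the argininosuccinate synthetase Ass1, which serves renal arginine synthesis, 2158 ± 389.8, and the aminotransferase Aadat 2576 ± 276. Odc1, the first enzyme of polyamine synthesis, had 472, 1535, 1089.5, 1426 and 899. Oat, the ornithine aminotransferase, had 1075, 2189.6, 1874, 2110.4 and 2143. Cth, the cystathionine gamma-lyase, had 241, 564, 389, 492 and 376. In all 3 animal 4 was lowest, and without it their ranges were 0.77, 0.22 and 0.58 log2 units. Asl, which follows Ass1 in arginine synthesis, was highest in animal 4, with 324, 191, 204, 147 and 244, and its range was 1.11 log2 units with that animal and 0.71 without it.

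Antioxidant and conjugation genes had a median rank of 96.4, with 22 of 32 above the 90th percentile. Their median SD of 0.30 was above the 0.23 of all kept genes. Of the 32 kept, 6 were wide, where 10.8% of all kept genes were. Over the other 4 animals their median SD was 0.22, against 0.21 for all kept probe sets. There 2 of the 32 were wide, where 5.89% of all kept probe sets were. Gclc, the catalytic subunit of the first step of glutathione synthesis, had 2488, 4064, 3771, 3396 and 4314, and its other probe set was lowest in animal 4 as well. Gss, the glutathione synthetase, had 569, 1318, 1067, 1100.3 and 986, and the transferase Gstt2 49.7, 139, 158, 125 and 159. In all 3 animal 4 lay below the other 4, which lay closer together. Without animal 4 the ranges of Gss and Gstt2 were 0.42 and 0.33 log2 units, against 1.20 and 1.58 with it. Sod1, the cytosolic superoxide dismutase, had 3233 ± 367 and catalase, Cat, 1114 ± 219. The metallothionein gene Mt1 had 132, 73, 87.9, 35.3 and 147, lowest in animal 11. Hmox1, the inducible heme oxygenase, was near the filter, at 39.5 ± 3.58, with an SD of 0.11. Of the kidney's cytochrome P450 genes, Cyp4a3 and Cyp4a8, which hydroxylate fatty acids and arachidonate, had 2036 ± 281 and 1138 ± 152, and the epoxygenase Cyp2c23 1765 ± 414. The xenobiotic-induced Cyp1a1 did not pass the filter, with 14.8 ± 10.5.

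Among hormone receptors and secreted factors, Pth1r, the parathyroid hormone receptor of proximal and distal cells, had 449, 441, 460.1, 443 and 477 and an SD of 0.05 at its brightest probe set. A dimmer kept probe set of Pth1r was wide, with 132, 59.4, 92.2, 88.6 and 77.3. Prlr, the prolactin receptor, had 198, 480.2, 487, 444 and 312 at its brightest probe set, with a range of 1.28 log2 units, or 0.63 without animal 4. Of its other probe sets, 1 was lowest in animal 4 and 1 had nearly equal lowest values of 237 in animal 12 and 238 in animal 4. Igf1, insulin-like growth factor 1, had 12.2, 83.3, 89.5, 107 and 93. Animal 4 lay 6.43-fold below the highest animal, and the other 4 spanned 0.34 log2 units. The gene's other probe set was also lowest in animal 4, but by less, with 35.4, 87.9, 59, 81.1 and 53.9. The range there was 1.20 log2 units. The binding protein gene Igfbp7 had 2894 ± 191 and an SD of 0.09. The probe set for Kl, the co-receptor of fibroblast growth factor 23 that is known for its renal expression, ranked at 9.25 with 3.40, 1.10, 7.30, 11.7 and 2.50, and that for Epo, erythropoietin, at 14.8 with 8.36 ± 3.99.

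Markers of neighbouring tissues were low, with exceptions. Adrenal genes had a median rank of 17.1 and were led by Cyp11a1, the first enzyme of steroid synthesis, at 48.5 ± 16.7. Liver genes had a median rank of 37.8, with Alb, albumin, at 22.7 ± 10.8 and Apoa1 at 3.30 ± 3.39, while Cyp2c11 reached 585 ± 132. Adipose genes had a median rank of 30.6, with Aqp7, a glycerol channel also present in the proximal tubule, at 399 ± 42.7. Skeletal muscle genes had a median rank of 20.4, with the muscle creatine kinase Ckm at 59.2 ± 27.4 and the actin Acta1 at 5.82 ± 2.88. The kept genes Cyp11a1 and Ckm were wide only with animal 4, with ranges of 0.90 and 0.89 log2 units without it. The probe set annotated to the muscle myosin Myh1 went against the rest of that list, with 1841, 2278, 2031, 1971 and 2168 and a rank of 99.5. Of 4 further probe sets annotated to Myh1, 3 had mean signals of 1150.2 to 1391 and 1 had 114. The reason was not tested, and the array annotation used can be old. The haemoglobin gene Hbb had 1895, 1377, 2380.4, 2327 and 1176, highest in animals 10 and 11. The X-inactivation transcript Xist had 0.4 to 2.60 in every animal.

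Leukocyte genes were highest in animal 4 for 12 of 18 kept genes, where 29.9% of all kept genes were. The invariant chain Cd74 had 1611, 977, 974, 773 and 1114, the Fc receptor chain Fcer1g 589, 294, 377, 276 and 398 and the class II gene RT1-Ba 260.1, 118, 102, 110.3 and 174. Without animal 4 their ranges were 0.53, 0.52 and 0.75 log2 units, against 1.05, 1.08 and 1.31 with it. The pan-leukocyte marker Ptprc did not pass the filter, with 25.2 ± 7.52, and the T cell marker Cd3e had 9.74 ± 5.56. The mean deviation of the kept leukocyte genes from their own means, the list's score, was 0.35 log2 units in animal 4 and -0.25 in animal 11, the lowest. Their part in the other differences of animal 4 was not tested.

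Genes of tubular injury had a median rank of 70.1, against 57.5 for all represented genes. Above the 90th percentile ranked 3 of 21 (14.3%), near the 11.7% of all represented genes. Tff3, the trefoil peptide named above among the brightest genes, was the brightest of them, with 4726 ± 887. Havcr1, kidney injury molecule 1, did not pass the filter, with 13.9, 21.9, 43.7, 28.6 and 27.1. Lcn2, the neutrophil gelatinase-associated lipocalin, had 52.5, 35.8, 42.5, 36.6 and 42.6, with an SD of 0.20. Spp1, osteopontin, had 398, 1024, 1124, 1025 and 465 and a rank of 96.6, with animals 4 and 12 below the other 3. Of the 17 kept injury genes, 8 were highest in animal 10, where 17.6% of all kept genes were. The immediate early gene Fos had 15.5, 38.9, 40.9, 29.8 and 48.2 and did not pass the filter, and Atf3 was near the bottom, at 2.62 ± 2.60. Immediate early genes had a median rank of 51.4. The kept ones were highest in animal 4 for 10 and lowest in animal 9 for 10 of 19, where animal 4 was highest for 29.9% and animal 9 lowest for 18.8% of all kept genes. Zfp36, an RNA-destabilising protein induced with these genes, had 270.5, 103, 207, 153 and 132, and its range was 1.35 log2 units with animal 4 and 0.97 without it. Kept genes known to respond to glucocorticoids were highest in animal 4 for 9 and lowest in animal 9 for 10 of 14, to be read against the same 2 shares. In that list Errfi1, an inhibitor of epidermal growth factor receptor signalling, had 937, 395, 412, 478 and 568 and a range of 1.24 log2 units, or 0.52 without animal 4, and Sgk1, the aldosterone- and glucocorticoid-induced kinase, 383 ± 88. The glucocorticoid list's score was 0.31 in animal 4, 0.14 in animal 10 and -0.32 in animal 9. Animals 9 and 10 were in the same fluidics run.

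Wide segment genes had animal 4 at an end of their range about as often as wide genes in general. Of 19 wide genes among 146 kept segment genes, 7 were highest and 8 lowest in animal 4, together 78.9%. Of all 767 wide kept genes, animal 4 was highest for 38.3% and lowest for 30.4%, together 68.7%. Of all kept genes, wide or not, it was lowest for 23.6%. Over the other 4 animals 7 of the 146 were wide. Those highest in animal 4 were Slc5a2, Slc7a7, Slc22a8, Slc12a3, Klk1, Scnn1b and Rhcg. Those lowest were Mme, Mep1b, Slc38a3, Slc22a2, Slco1a6, Nedd4l, Pdgfra and Tagln, a smooth muscle protein, whose range was 1.23 log2 units with animal 4 and 0.79 without it. For genes with several kept probe sets and a wide brightest one, 32 of 65 had the same highest animal at the 2 brightest of them and 27 the same lowest, 49.2% and 41.5%. Among all 830 genes with several kept probe sets these shares were 31.2% and 26.7%.

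**Figure D3:**
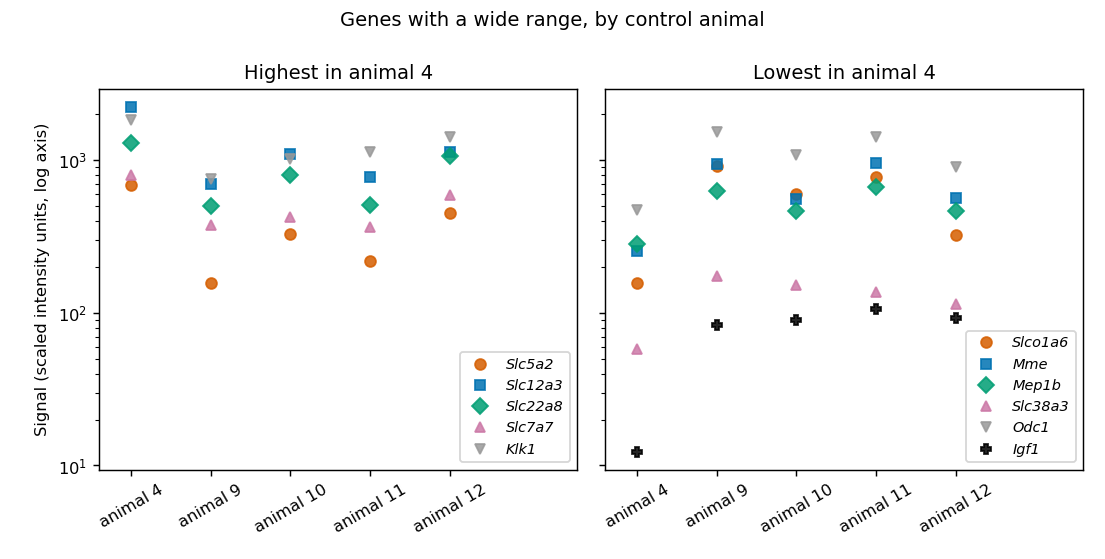
Signal (scaled intensity units, log axis) in each of the 5 control animals of 5 genes highest in animal 4 (left) and 6 genes lowest in animal 4 (right). Each point is 1 array. Animal 12 lies nearer to animal 4 than the remaining animals for Slc22a8 and Slco1a6, while Igf1 sets animal 4 apart alone.

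The largest excess spread, the SD of a gene above the running trend of SD on mean signal, belonged to Rbp4, the plasma retinol-binding protein, with 5, 234, 152, 94.5 and 65.6. Animal 9 was highest and animal 4 lowest, 23.5-fold apart, and the range over the other 4 animals was 1.76 log2 units. Next came Hspb1, described below with the heat shock genes, and the actin-related complex subunit Arpc4, with 272, 63.1, 236, 28 and 217. Animals 9 and 11 lay below the other 3 for Arpc4, as they did for the peroxisomal transporter Abcd3, with 633, 224, 549.7, 112 and 746, and for the cytolinker Plec, with 160.4, 37, 170, 52.5 and 134. Gldc, of the glycine cleavage system, had 151, 47.5, 74.5, 17.2 and 108, again with animals 9 and 11 lowest. These genes were picked for their spread, and this order of animals was noticed after the values were seen. Its share over all kept genes was not counted. The lipogenic genes Scd, a stearoyl-CoA desaturase, and Thrsp had 43.6, 30.9, 127, 56.5 and 203 and 19.6, 37.2, 87.5, 59.8 and 158, and for both animal 12 was highest and animal 10 next. Several genes of this group owed their place to 1 dim array, such as Igf1 in animal 4 and, at 7.40 against 34.9 to 59.1 in the other animals, Gpnmb in animal 12.

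At the other end, 15 genes of the brightest 25% had the smallest SDs. Mrps23, a mitochondrial ribosomal protein, had 275, 283, 288, 280 and 279, an SD of 0.02 log2 units and a 1.05-fold range. Sccpdh, a dehydrogenase-like protein, had 457, 459, 477, 472 and 459. The clathrin light chain gene Clta and the clathrin adaptor gene Ap2b1 were in this group, although a dimmer probe set of Ap2b1 had an SD of 0.49, as were the ribosomal protein genes Rps24 and Rpl26. Of genes often used as references, Ywhaz had 681, 689.9, 687, 741 and 676 and an SD of 0.05, with 0.23 at its other kept probe set, while B2m and Eef1a1 had SDs of 0.19 and 0.28. Eef1a1 had 2236, 3453, 3059, 3128 and 2286, with animals 4 and 12 below the other 3, whereas its other bright probe set had 2083, 2555, 2152, 2180.3 and 2942 and was highest in animal 12.

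**Figure D4:**
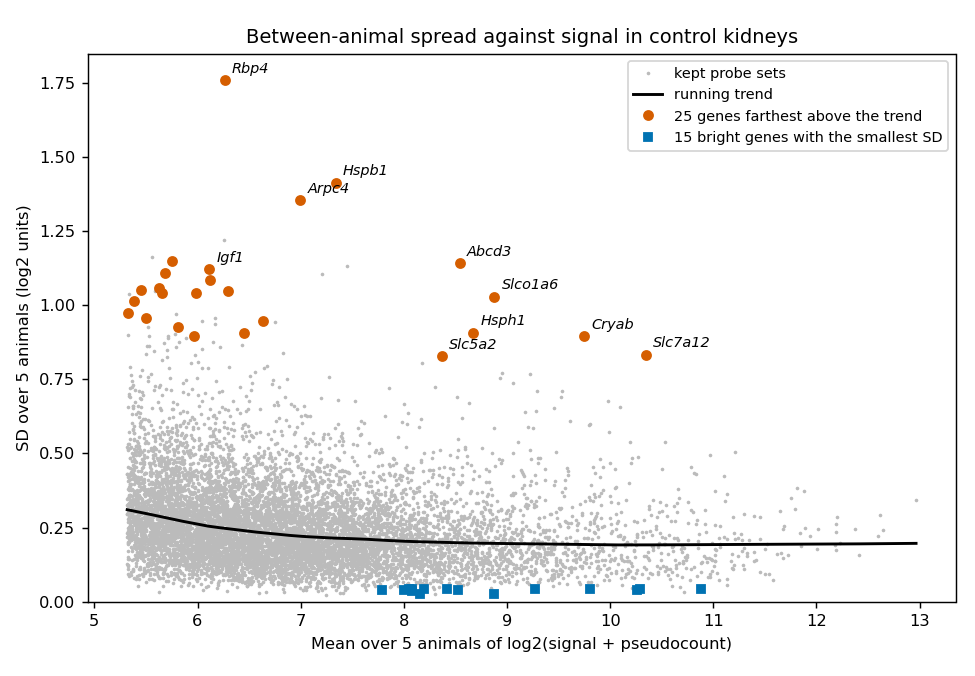
SD over the 5 control animals (log2 units) against the mean of log2(signal + pseudocount) for the kept probe sets (grey), with the running trend (black line). Orange circles are the 25 genes farthest above the trend and blue squares the 15 bright genes with the smallest SD. Rbp4 is highest at 1.76 and Hspb1 next at 1.41.

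Most kept heat shock genes were highest in animal 10. Heat shock proteins fold and protect other proteins, and their genes are switched on together by heat shock factor 1, which binds repeated GAA units in their promoters. Of 15 kept genes, 11 were highest in animal 10, where 17.6% of all kept genes were, and 4 were wide with or without animal 4. The list's score was -0.28, 0.09, 0.54, -0.09 and -0.26 log2 units. The small chaperone Hspb1 had signals of 84.9, 265, 712, 83.2 and 67. Animal 10 was highest, animal 9 next, and the other 3 lay together, with a fold of 9.94 from end to end. Hsph1, the HSP110 co-chaperone, had 229, 441, 1149.9, 329 and 274, in the same order of the first 2 animals. Serpinh1, the collagen chaperone HSP47, had 243, 270.4, 748, 204 and 181, with animal 10 alone above the rest. The mitochondrial chaperonins Hspd1 and Hspe1 had 2118, 2500, 3131, 2151 and 2552 and 1265, 1662, 1894, 1471 and 1609.6, highest in animal 10 by a smaller margin. Cryab, a small chaperone abundant in the medulla, had 378, 1457, 1461, 1105 and 516, nearly equal in animals 9 and 10 and lower in animals 12 and 4.

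Some genes of the same response did not follow. The inducible chaperone Hspa1a had 164, 108, 142, 129 and 105, highest in animal 4. The co-chaperones Dnajb1 and Bag3 had SDs of 0.10 and 0.05, with 139.8, 123, 119, 141 and 132 for Dnajb1 and 237, 224, 227, 234 and 218 for Bag3. A dimmer probe set of Dnajb1 had an SD of 0.38 and was not highest in animal 10 either. Dnaja1 had 365, 534, 520.5, 592 and 668, highest in animal 12. Animals 9, 10 and 11 were in 1 fluidics run, and within it animal 10 was above the other 2 for Hspb1, Hsph1, Serpinh1, Hspd1 and Hspe1. Animal 10 had the lowest actin and the next to highest Gapdh 3′ to 5′ ratio, and the part of RNA integrity in these values was not tested.

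**Figure D5:**
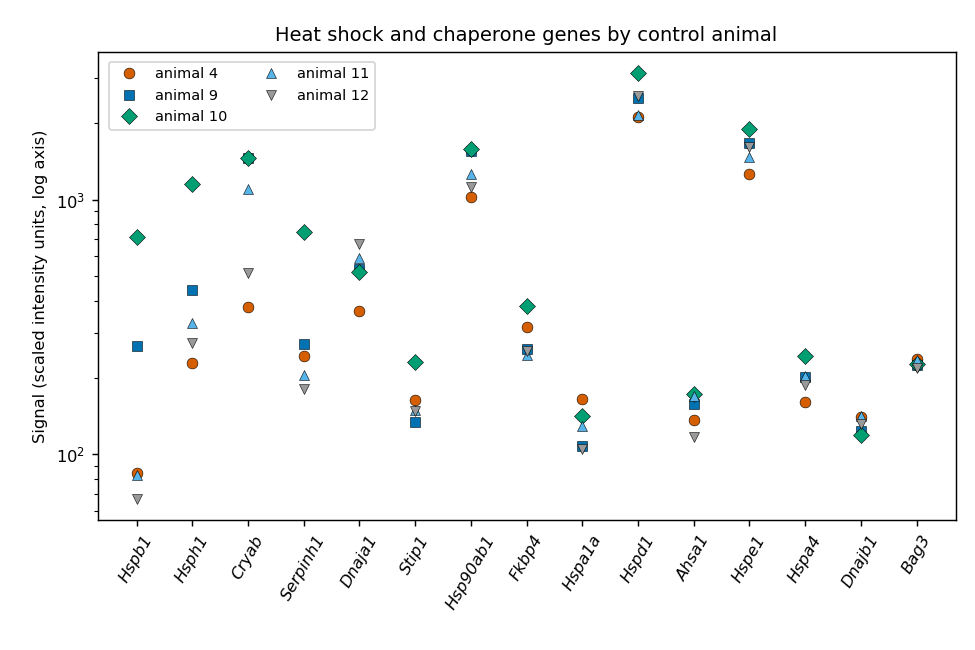
Signal (scaled intensity units, log axis) of the 15 kept heat shock and chaperone genes in each of the 5 control animals, ordered from the largest SD (left) to the smallest (right). Each point is 1 array. Animal 10 is highest for Hspb1, Hsph1 and Serpinh1, and the points of Dnajb1 and Bag3 lie close together.

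The promoter windows of 4 of these genes are printed to show which hold an exact match to the heat shock factor's binding pattern. The sequences are from RefSeq, build GRCr8, 250 bases before to 50 after the annotated start, 5′ to 3′ on the gene's strand. Capitals mark 3 alternating units, GAANNTTCNNGAA or its reverse complement TTCNNGAANNTTC, so that both strands were searched; matches of both may overlap and are then capitalised as 1 run.
Hsph1, chr12:10427118-10427417, plus strand: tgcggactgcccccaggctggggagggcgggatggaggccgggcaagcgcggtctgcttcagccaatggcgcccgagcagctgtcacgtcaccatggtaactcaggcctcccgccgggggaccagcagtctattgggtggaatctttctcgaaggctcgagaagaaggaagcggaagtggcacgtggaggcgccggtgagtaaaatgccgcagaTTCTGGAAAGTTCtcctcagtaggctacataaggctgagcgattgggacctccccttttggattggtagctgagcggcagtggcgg
Serpinh1, chr1:163062927-163063226, minus strand: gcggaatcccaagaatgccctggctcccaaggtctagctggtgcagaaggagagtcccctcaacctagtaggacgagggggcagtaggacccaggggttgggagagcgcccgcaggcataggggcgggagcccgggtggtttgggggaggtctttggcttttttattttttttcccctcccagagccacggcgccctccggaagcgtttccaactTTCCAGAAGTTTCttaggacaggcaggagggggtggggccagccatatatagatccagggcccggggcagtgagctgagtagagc
Hspe1, chr9:64084077-64084376, plus strand: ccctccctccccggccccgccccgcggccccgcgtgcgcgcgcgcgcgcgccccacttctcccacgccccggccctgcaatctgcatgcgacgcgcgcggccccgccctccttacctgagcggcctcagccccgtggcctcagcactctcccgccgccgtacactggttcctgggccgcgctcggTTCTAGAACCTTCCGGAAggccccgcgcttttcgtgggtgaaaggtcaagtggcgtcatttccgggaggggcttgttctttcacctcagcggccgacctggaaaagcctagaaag
Hspb1, chr12:26432252-26432551, minus strand: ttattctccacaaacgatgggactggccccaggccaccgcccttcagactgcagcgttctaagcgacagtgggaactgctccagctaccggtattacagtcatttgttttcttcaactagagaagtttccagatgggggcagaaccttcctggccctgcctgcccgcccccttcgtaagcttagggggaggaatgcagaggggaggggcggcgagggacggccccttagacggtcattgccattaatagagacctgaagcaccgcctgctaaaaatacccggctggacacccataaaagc
The pattern was found in 5 of 15 heat shock genes with a window, namely Hsph1, Serpinh1, Hspe1, Hspd1 and Dnaja1, against 267 of 33469 windows of the same length (0.798%). Hspd1 and Hspe1 are transcribed away from each other, and their windows share bases. Their match is the same stretch of the genome read on opposite strands, so the 5 genes hold 4 separate sites. The match began 36 bases before the start of Hsph1, 35 before that of Serpinh1 and 65 before that of Hspe1. Hsph1 and Serpinh1, 2 of the 3 genes with the largest difference of animal 10 from the rest, held an exact match. The window of Hspb1 held no exact match, and Dnaja1, which held one, was not highest in animal 10. A match is a run of letters and not a shown binding site. Inexact matches were not searched for, so a window without a match may still hold one.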

How the data were processed

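Total RNA of rat kidneys was hybridised to Affymetrix RAE230A arrays, 1 array per animal, and the deposited values are linear intensity signals per probe set. How the authors computed and scaled the deposited intensity was not stated in the labels or file headers. The trimmed mean of each deposited array was close to 100. The deposited experiment files name no runs and were used only for the clock times entered with the hybridisation date. Runs were taken as separate where at least 10 minutes lay between arrays in time of day, and the date itself was not used. Only arrays labelled Control were analysed, without a test between groups, since 1 group has no contrast. The members and gene lists were chosen with earlier results of these data known.

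Manufacturer's control probe sets were left out of the description and used only for the actin and Gapdh ratios. Of the described probe sets, 12783 carried 1 gene symbol, 312 several and 2771 none in GEO's platform annotation. Symbols were updated through Entrez IDs for 12748 of them with RefSeq (GRCr8). Signals were taken as log2(signal + 5.17), with no further normalization. The trend of SD on mean was a lowess curve with a span of 30%. Genes that could be named were, per list, the first 8 genes in file order, the 4 brightest, the 2 dimmest and the 3 with the largest SD, besides the 30 brightest genes of all, the 25 with the largest excess spread and the 15 of the brightest 25% with the smallest SD. Of the 477 genes this allowed, 175 were named, a choice made with their values known. Another 18 of the 193 genes named were chosen after their values were seen: Slc4a4, Nherf1, Ezr, Slc3a2, Abcc2, Casr, Kcnj16, Atp2b1, Nr3c2, Hadh, Hsd17b4, Asl, Oat, Cyp1a1, Ywhaz, Serpinh1, Bag3 and Cd3e. The precision is limited by the number of arrays. Alternatives were other pseudocounts, filters, normalizations, measures of spread and probe set rules, and leaving out each animal. Leaving out animal 4 on the probe sets kept with all 5 animals was chosen after seeing the data, as was averaging the probe sets of a gene for the ranks of named genes. The spread calculation was tested on simulated data. Python 3.11.15, NumPy 2.4.6, pandas 2.3.3, statsmodels 0.14.6 and matplotlib 3.10.9 were used.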

Additional observations from a re-analysis of the deposited data

Results flagged for a closer look

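Of 193 named genes and 35 list scores, 14 genes and 1 score had a sample far from the others. Its gap to the nearest of the other animals was more than 0.71 of the whole range (Dixon's limit for 5 values). For genes, gap and range were taken on the log2(signal + pseudocount) scale, while the values printed below are signals. Chance flags about 1 in 20 groups, but many of these genes were named for their spread or after their values were seen, so the number of genes cannot be read against that share. Animal 4 was the sample apart for 5 genes, in each as the lowest. These were Pdgfra at 117.3 (other animals 236.6 to 250.9), Oat at 1075.1 (1873.8 to 2189.6), Gstt2 at 49.7 (125.2 to 158.9), Igf1 at 12.2 (83.3 to 106.6) and Hsd17b4, a peroxisomal beta-oxidation enzyme, at 575.4 (635.8 to 643.2). Animal 10 stood apart for 4 genes. It was lowest for the podocyte gene Nphs1 at 30.2 (58.3 to 71.3) and the thick limb gene Cldn16 at 29.1 (65.8 to 77.1), and highest for the collagen chaperone Serpinh1 at 748.4 (180.6 to 270.4) and the stress factor Atf3 at 7.2 (0.9 to 2.1). Animal 11 was highest for Pvalb at 6.3 (1.9 to 2.6), Ywhaz at 741.3 (675.5 to 689.9) and Clta at 936.0 (870.4 to 885.3). Animal 12 was highest for Igfbp7 at 3227.1 (2764.0 to 2872.2) and lowest for Gpnmb, a transmembrane glycoprotein of macrophages, at 7.4 (34.9 to 59.1). The score of the reference genes was 0.077 log2 units in animal 10, against -0.036 to -0.0056 in the other animals. Below the signal of 34.7 at the filter on dim probe sets lay all signals of Atf3 and Pvalb, and the outlying signals of Igf1, Nphs1, Cldn16 and Gpnmb.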

How the results depend on the processing

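The median SD over the animals was 0.23 log2 units. It was 0.28 without the filter on dim probe sets, and 0.19 to 0.24 under the other pseudocounts, the stricter filter, quantile normalization, median centring and the median absolute deviation, and 0.21 to 0.23 when each animal was left out in turn. The count of wide probe sets, 1148, depended more on the settings. It was 471 with a pseudocount of 50% of the median, 4199 without the filter and 515 with a filter at the 60th percentile, against 1402 with a pseudocount of 1%, 1129 after quantile normalization and 1134 after median centring. Leaving out each animal in turn gave 556 to 973, the lowest without animal 4, or 561 on the probe sets kept with all 5 animals. The pseudocount, the filter and both normalizations keep the order within an array, so ranks say nothing about them. For a given probe set, leaving out 1 of 5 animals cannot shift a mean rank by more than its SD between animals. That no rank of the 193 named genes moved so far therefore says nothing about the choice of animals. Averaging all probe sets of a gene in place of the brightest moved the ranks of 39 of 193 named genes and 21 of 35 median list ranks by more than that spread, and the order of lists such as the distal convoluted tubule (59.9 against 84.6) and glucocorticoid-responsive genes (52.1 against 66.6) rests on the brightest probe set. Median list SDs moved in 49 of 420 cases, 13 of them with the larger pseudocount and 11 without animal 4. No paired analysis was possible because the 5 control animals form 1 group with no partner samples. With 1 array per animal, animal, dissection and array cannot be told apart, nor can the fluidics run for animals 4 and 12, and signals near the filter carry the largest spread.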
